A study of Danio rerio with 20 samples.

Results

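Wild-type zebrafish cardiomyocytes at 5 days after ventricular resection (dpi) were compared with those at 2 dpi, over every gene that reached 1 CPM (count scaled to the size of the library) in at least 2 of the 4 libraries. This held for 10433 of the 14781 genes in the table, all of which were tested. The libraries hold polyadenylated RNA of cardiomyocytes isolated from fish aged 4 to 6 months, with 8 ventricles pooled in each and 2 libraries per group. Fish of the compared groups were wild type and had about 20% of the ventricular apex cut away, and the other wild-type groups were untouched or taken at 7 and 14 dpi. The same times were sampled in fish mutant for kita(w34b2) and kitb(sa15356), the 2 zebrafish genes for the kit receptor tyrosine kinase, and the series concerns a defect in the proliferation of mutant cardiomyocytes.

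Zebrafish regrow lost ventricular muscle from cardiomyocytes that survive the cut, partly lose their contractile structure and divide. The injury also brings in inflammatory cells, and activates the epicardium and endocardium, which lay down a transient matrix and send signals to the muscle. Fibronectin is known as an early component of that matrix, and periostin marks fibroblasts that become active as repair goes on.

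The 4 libraries held 14604835 to 22129621 reads assigned to genes, so that 3 reads, taken here as a lower limit of detection, came to 0.136 to 0.205 CPM. That limit chose no genes for testing, which were kept by the rule of 1 CPM. Levels are scaled CPM, meaning CPM divided by a library factor, and are given per library. Differences are log2 values of 5 dpi minus 2 dpi with their standard error, on the log2(scaled CPM + 1) scale, which understates changes of genes at low levels. A gene is called where the adjusted p of limma was under 0.05, and only called genes are said to rise or fall. The 2 libraries of 2 dpi differed from each other with a mean chi-square per gene of 46.6, against 20.3 for the pair of 5 dpi, where read sampling alone gives about 1. The medians per gene were 3.60 and 2.26. The labels do not say that libraries of a group came from separate preparations beyond their pools, so the p-values measure the spread between libraries. That spread was estimated within groups over all 10 wild-type libraries together, so the wider pair of 2 dpi was tested with a shared spread.

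The preparations were rich in cardiomyocyte transcripts but were not pure. Summed over 8 marker genes of cardiomyocytes, levels were 26952 and 39515 scaled CPM at 2 dpi and 37123 and 45012 at 5 dpi. Markers of the epicardium and fibroblasts summed to 3091 and 4290.2 at 2 dpi and to 3969 and 3645 at 5 dpi, and the erythrocyte markers to 6179.8, 1332, 6948 and 6373 in the same order. Replicate 2 of 2 dpi stood apart by its low blood cell markers. Its macrophage markers summed to 85.8 scaled CPM, against 241 in replicate 1 of 2 dpi and 259 and 265 at 5 dpi, and its neutrophil markers to 9.05, against 33.0, 48.7 and 28.1. Its thrombocyte markers summed to 87.9, against 274, 149 and 146. Lymphocyte markers were low, with a T and NK sum of 3.02 and 0.852 at 2 dpi and 6.42 and 5.52 at 5 dpi. The highest of these T and NK markers, il2rb, had 37 and 6 reads at 2 dpi and 55 and 59 at 5 dpi. In bulk RNA, fewer cells of a type and less RNA per cell cannot be told apart.

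**Figure D1:**
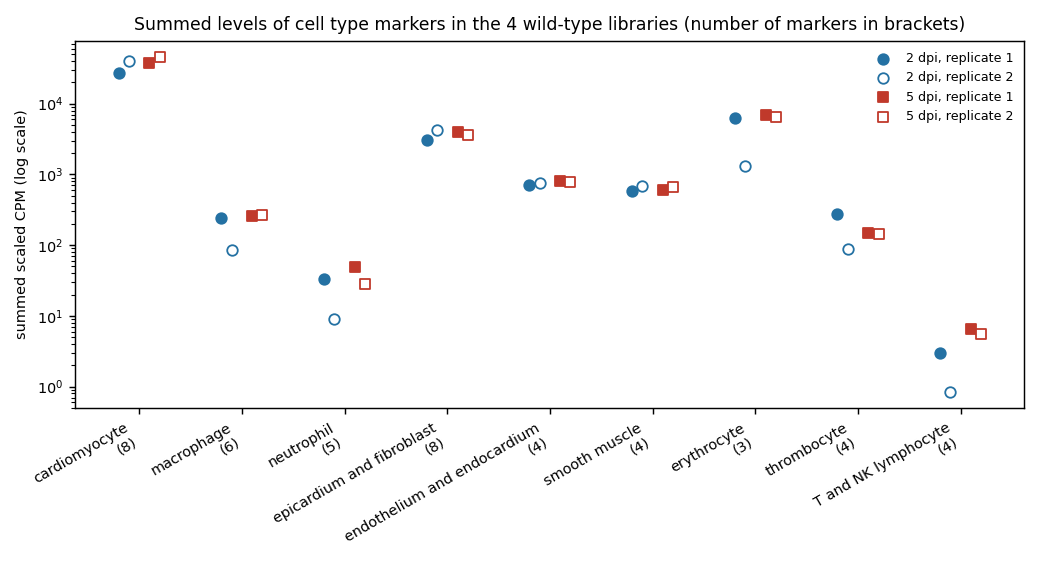
Summed scaled CPM (log axis) of the marker genes of 9 cell types in each of the 4 wild-type libraries, with circles for 2 dpi and squares for 5 dpi and the number of markers in the table in brackets. The open circle, replicate 2 of 2 dpi, lies below the other 3 libraries for erythrocytes (1332 scaled CPM), macrophages (85.8), neutrophils (9.05), thrombocytes (87.9) and T and NK lymphocytes (0.852).

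From 2 to 5 dpi, genes of cell division, ribosome assembly, the proteasome and the secretory pathway fell, while immediate early genes, developmental transcription factors and growth signalling genes rose. In all, 2025 genes were called higher at 5 dpi (19.4% of those tested) and 2255 were called lower (21.6%). In every called gene both libraries of 5 dpi lay on the same side of both libraries of 2 dpi, which held for 71.0% of all tested genes. The called changes were mostly modest, with a median size of 0.72 on the log2 scale. More than a 2-fold change was found in 600 of the genes called higher and 405 of those called lower, and more than a 4-fold change in 21 and 20. The median over all tested genes was -0.01. Counts of list members given below for wild type are to be read beside the 19.4% called higher and 21.6% called lower.

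These counts depended on how libraries were scaled and on single libraries. With CPM as deposited the median of all genes shifted by -0.11, 1505 genes were called higher and 2813 lower, and the share of calls that were rises went from 47.3% to 34.9%. Without replicate 1 of 5 dpi the counts were 1338 and 1553, and without replicate 2 of 5 dpi they were 1229 and 1334. A call in every one of the 4 fits that left out 1 library was kept by 1024 of the rises and 1152 of the falls. Of the lists described below, 3 had a median that changed sign with CPM as deposited: the respiratory chain (0.02 to -0.11), glycolysis (0.10 to -0.02) and matrix proteases (0.07 to -0.05).

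**Figure D2:**
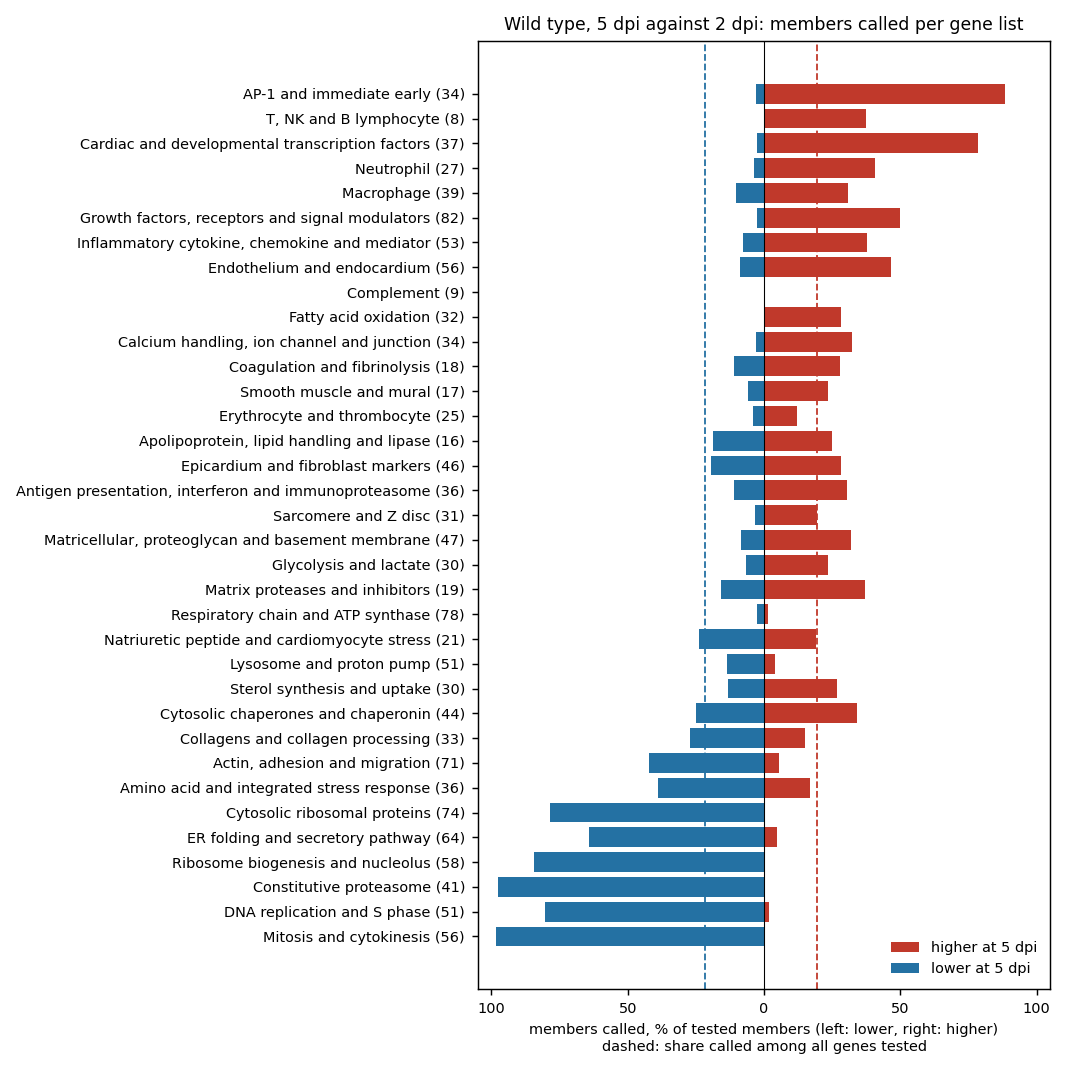
Share of the tested members of each gene list that were called higher (right) or lower (left) at 5 dpi than at 2 dpi in wild type, with the number tested in brackets and lists ordered by their median log2 difference. The dashed lines mark the share of all tested genes called higher (19.4%) and lower (21.6%).

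Genes of mitosis fell together and had the lowest median of the 35 lists compared. Of 56 tested members, 55 fell and none rose, with a median of -1.42. The remaining member, cdc25b, a phosphatase that activates cyclin-dependent kinase, had a log2 difference of 0.36 ± 0.17. For ccnb1, the cyclin B1 that drives entry into mitosis, levels were 34.98 and 42.6 scaled CPM at 2 dpi and 6.06 and 6.39 at 5 dpi (log2 -2.45 ± 0.16, adjusted p = 5.5e-05). Untouched libraries held 1.78 and 1.76 scaled CPM, so that both libraries of 5 dpi stayed above them while lying far below 2 dpi. The importin kpna2, which carries spindle factors and other cargo into the nucleus, was at 109 and 121 at 2 dpi and 19.03 and 17.5 at 5 dpi (log2 -2.59 ± 0.16, adjusted p = 5.5e-05).

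Kinases, checkpoint genes and spindle genes were all among those called. Among the kinases, cdk1 was at 40.1 and 41.0 scaled CPM at 2 dpi and 9.94 and 8.94 at 5 dpi (log2 -1.99 ± 0.17, adjusted p = 7.6e-05), and plk1, which acts at entry and exit of mitosis, at 22.999 and 22.9 at 2 dpi and 5.75 and 6.62 at 5 dpi (log2 -1.74 ± 0.14, adjusted p = 7.3e-05). In both genes the 2 libraries of each time were close to each other and the times did not overlap. In the chromosomal passenger complex, which corrects attachment of chromosomes to the spindle, birc5a had a log2 difference of -2.24 ± 0.18 and cdca8 of -2.37 ± 0.19. The spindle checkpoint genes mad2l1 and cdc20 differed by -2.26 ± 0.25 and -2.21 ± 0.19, and the spindle gene tacc3 by -2.02 ± 0.17. Topoisomerase top2a, needed to untangle chromosomes, was at 88.0 and 84.1 scaled CPM at 2 dpi and 26.3 and 26.5 at 5 dpi (log2 -1.67 ± 0.14, adjusted p = 7.3e-05), and mki67, a proliferation marker, at 55.4 and 53.6 at 2 dpi and 17.6 and 13.6 at 5 dpi (log2 -1.75 ± 0.15, adjusted p = 7.3e-05).

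DNA replication genes fell as well, by less. Of 51 tested members 41 fell and 1 rose, with a median of -0.84, and without replicate 2 of 5 dpi 26 fell. The 6 tested subunits of the MCM helicase, which opens DNA for copying, were all called lower, with a median of -0.96. This subset, like the other named families of subunits below, was picked out after the values were seen. Of the 6 MCM calls 2 were kept in every fit that left out 1 library. The member that rose, slbp (0.83 ± 0.23), which binds histone transcripts, lost its call without replicate 2 of 2 dpi or either library of 5 dpi (adjusted p up to 0.087). Cyclin A2 (ccna2), which serves S phase and mitosis, was at 19.4 and 22.3 scaled CPM at 2 dpi and 6.42 and 6.16 at 5 dpi (log2 -1.58 ± 0.19, adjusted p = 0.00029). The replication clamp pcna was at 151 and 180.1 at 2 dpi and 84.3 and 69.9 at 5 dpi (log2 -1.09 ± 0.15, adjusted p = 0.00055), with 5 dpi below its untouched levels of 95.7 and 121. The polymerase subunits pola2 and prim1, which start new strands, differed by -1.49 ± 0.18 and -1.06 ± 0.15, and the flap endonuclease fen1 by -1.34 ± 0.17.

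The 2 cell cycle lists stood differently against untouched hearts. The median of the mitosis list lay 2.37 and 2.27 above the untouched mean (log2, 1 value per library) at 2 dpi and 0.75 and 0.66 at 5 dpi. The median of the replication list went from 0.44 and 0.66 to -0.24 and -0.36, below untouched.

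**Figure D3:**
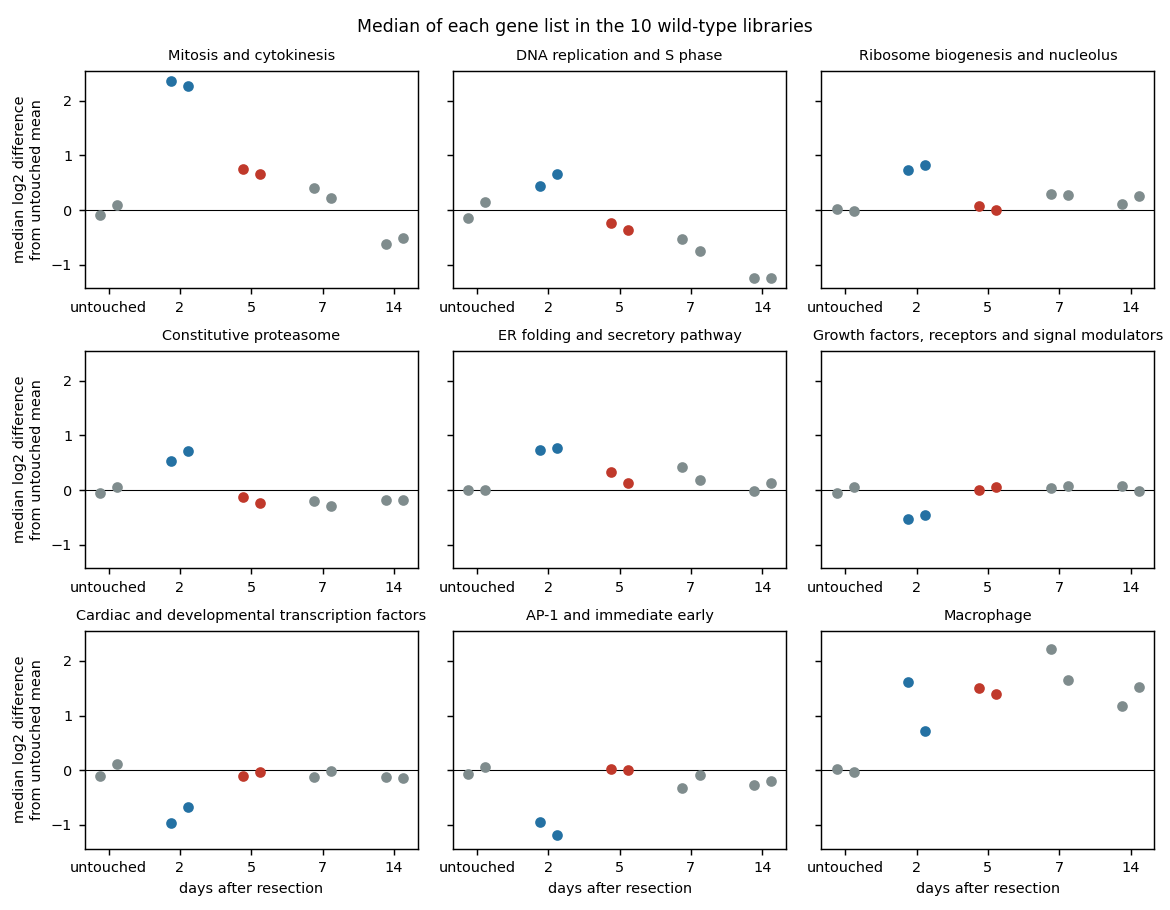
Median log2 difference of 9 gene lists from the mean of the untouched libraries, in each of the 10 wild-type libraries, with 2 dpi in blue and 5 dpi in red. The mitosis median lies at 2.37 and 2.27 at 2 dpi and 0.75 and 0.66 at 5 dpi, and the AP-1 median at -0.94 and -1.18 at 2 dpi.

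Genes that build ribosomes fell together. Of 58 tested members of ribosome biogenesis and the nucleolus, 49 fell and none rose (median -0.70). Nucleophosmin (npm1a), an abundant nucleolar chaperone, was at 395 and 432 scaled CPM at 2 dpi and 182 and 180.0 at 5 dpi (log2 -1.18 ± 0.11, adjusted p = 0.0001), and its 5 dpi levels lay next to the untouched ones of 185 and 175. The regulator of ribosome synthesis rrs1 was at 27.2 and 36.1 at 2 dpi and 8.87 and 8.67 at 5 dpi (log2 -1.73 ± 0.14, adjusted p = 7.4e-05). For dkc1 and nop58, core proteins of the particles that modify ribosomal RNA, the differences were -1.49 ± 0.15 and -1.41 ± 0.14. Of 23 tested subunits of RNA polymerases I to III, 18 fell and none rose, and of 13 cytosolic aminoacyl-tRNA synthetases 12 fell. With each library left out in turn, 8 of the 18 and 11 of the 12 calls were kept throughout.

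The ribosomal protein genes themselves changed less and their calls were less stable. Of 74 tested members 58 fell and none rose, with a median of -0.48. The number called was 11 without replicate 2 of 2 dpi, 12 without replicate 1 of 5 dpi and 7 without replicate 2 of 5 dpi, while the median of the list was -0.33, -0.48 and -0.50. The acidic stalk protein gene rplp1 was at 1556 and 1996 scaled CPM at 2 dpi and 979 and 1064 at 5 dpi (log2 -0.79 ± 0.16, adjusted p = 0.0033), and the large subunit gene rpl23 at 812 and 1003 at 2 dpi and 587 and 603 at 5 dpi (log2 -0.60 ± 0.14, adjusted p = 0.0059). Both groups were apart in each, with replicate 2 of 2 dpi the highest library.

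Subunits of the proteasome, the complex that breaks down ubiquitin-tagged proteins, fell almost without exception. Of 41 tested members of the constitutive proteasome 40 fell (median -0.81), and the exception, psme4b, which encodes an alternative activator, had a log2 difference of 0.20 ± 0.13. The core subunit psma5 was at 100.2 and 109 scaled CPM at 2 dpi and 52.9 and 46.6 at 5 dpi (log2 -1.06 ± 0.11, adjusted p = 0.00013), with untouched libraries at 51.1 and 54.6. The lid subunit psmd12 was at 68.7 and 79.7 at 2 dpi and 35.7 and 31.4 at 5 dpi (log2 -1.12 ± 0.11, adjusted p = 0.00014), and psmd11a, another lid subunit, at 54.0 and 59.4 at 2 dpi and 27.7 and 25.4 at 5 dpi (log2 -1.07 ± 0.11, adjusted p = 0.00013). In each of these the 2 libraries of 2 dpi lay well above both of 5 dpi. The assembly factors psmg1, psmg2 and pomp were also called lower, with log2 differences of -0.92, -0.86 and -0.85.

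Most genes of the secretory pathway fell. Of 64 tested members 41 fell and 3 rose (median -0.55), with 21 falls without replicate 2 of 5 dpi. The receptor kdelr2a, which returns escaped chaperones to the endoplasmic reticulum, was at 299.5 and 317 scaled CPM at 2 dpi and 129 and 131 at 5 dpi (log2 -1.24 ± 0.11, adjusted p = 8.3e-05), and the coat protein gene sec13 at 129 and 142 at 2 dpi and 62.9 and 57.4 at 5 dpi (log2 -1.16 ± 0.10, adjusted p = 8.3e-05). The oligosaccharyltransferase subunits rpn2 and ddost, which attach sugars to new proteins, differed by -1.04 ± 0.11 and -1.12 ± 0.12. Of 7 subunits of the COPI vesicle coat 6 fell and none rose.
The 3 members that rose were herpud1, dnajb9a (0.94 ± 0.11) and ero1a (0.68 ± 0.20), which act in protein folding and quality control in the endoplasmic reticulum. The call of ero1a was lost without replicate 1 of 2 dpi or replicate 2 of 5 dpi (adjusted p up to 0.19). Herpud1, which helps remove misfolded proteins, was at 50.1 and 34.1 scaled CPM at 2 dpi and 213 and 193 at 5 dpi (log2 2.27 ± 0.17, adjusted p = 5.7e-05), and 5 dpi also lay above the untouched levels of 113 and 106.

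The called genes of the amino acid and integrated stress response list split by function. Of 36 tested members 6 rose and 14 fell (median -0.34). These were 16.7% and 38.9% of the members, beside 19.4% and 21.6% of all tested genes, so the share of rises was not raised. All 6 that rose encode transcription factors or the regulator trib3, among them ddit3 at 168 and 120.1 scaled CPM at 2 dpi and 319 and 299.6 at 5 dpi (log2 1.12 ± 0.16, adjusted p = 0.00066) and atf3 at 347 and 259 at 2 dpi and 585 and 595 at 5 dpi (log2 0.97 ± 0.14, adjusted p = 0.00067), and the others were atf4a, atf4b and cebpb. Atf4a (0.47 ± 0.13) lost its call without either library of 5 dpi (adjusted p up to 0.092). Those that fell were enzymes and tRNA synthetases, among them the serine synthesis enzyme psat1 at 27.9 and 32.9 at 2 dpi and 13.6 and 11.8 at 5 dpi (log2 -1.20 ± 0.14, adjusted p = 0.00027) and the seryl-tRNA synthetase sars at 128 and 143 at 2 dpi and 60.1 and 57.8 at 5 dpi (log2 -1.18 ± 0.13, adjusted p = 0.00017). The threonyl-tRNA synthetase tars and the proline synthesis enzyme aldh18a1 differed by -1.05 ± 0.12 and -0.82 ± 0.11.

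Cytoskeletal genes of cell shape and movement fell in part. Of 71 tested members of the actin, adhesion and migration list 30 fell and 4 rose (median -0.29), with 15 falls and 0 rises without replicate 2 of 5 dpi and 1 rise without replicate 1 of 5 dpi. With CPM as deposited 1 rose. Of 14 tested genes of the Arp2/3 complex, which nucleates branched actin, 10 fell, with arpc5a at 128 and 124 scaled CPM at 2 dpi and 49.7 and 53.9 at 5 dpi (log2 -1.27 ± 0.11, adjusted p = 8.3e-05). Tubulin beta 5 (tubb5) was at 122 and 142 at 2 dpi and 39.0 and 36.8 at 5 dpi (log2 -1.77 ± 0.15, adjusted p = 8.1e-05), and 10 of 14 tubulin genes fell and 1 rose. Of these calls 5 of the Arp2/3 and 6 of the tubulin genes were kept in every fit that left out 1 library.

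Immediate early genes, which are switched on within minutes by many stimuli, rose from low levels at 2 dpi. Of 34 tested members 30 rose and 1 fell (median 0.99). The AP-1 subunit gene fosl1a was at 183 and 129 scaled CPM at 2 dpi and 567 and 591 at 5 dpi (log2 1.91 ± 0.18, adjusted p = 0.00011), and fosb at 48.5 and 40.6 at 2 dpi and 164 and 156 at 5 dpi (log2 1.83 ± 0.16, adjusted p = 8.3e-05). The AP-1 repressor jdp2b was at 109 and 97.4 at 2 dpi and 381 and 319 at 5 dpi (log2 1.75 ± 0.13, adjusted p = 5.7e-05). Their levels at 2 dpi lay far below the untouched ones, which were 460.0 and 548 for fosl1a, 221 and 171 for fosb and 572 and 515 for jdp2b. The zinc finger gene egr2a and the genes ier5 and ier5l differed by 1.54 ± 0.14, 1.40 ± 0.15 and 1.35 ± 0.11. The member that fell was ctgfa (-0.48 ± 0.17), a matricellular gene that responds to stretch. Its call was lost without replicate 2 of 2 dpi or either library of 5 dpi (adjusted p up to 0.29), and also with TMM scaling, with no filter and with the 4 libraries alone. In the list as a whole, the median against untouched was -0.94 and -1.18 at 2 dpi and 0.01 and -0.00142 at 5 dpi.

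Transcription factors of heart and embryonic development rose with similar regularity. Of 37 tested members 29 rose and 1 fell (median 0.76). Sox11a, a factor of progenitor cells, was at 5.91 and 7.34 scaled CPM at 2 dpi and 34.1 and 29.9 at 5 dpi (log2 2.12 ± 0.17, adjusted p = 7.3e-05), and sox4a, of the same subfamily, at 39.0 and 36.1 at 2 dpi and 139.8 and 124 at 5 dpi (log2 1.78 ± 0.13, adjusted p = 5.7e-05). Tbx2b, a repressor of chamber genes in the embryonic heart, was at 29.6 and 31.5 at 2 dpi and 73.8 and 60.5 at 5 dpi (log2 1.11 ± 0.11, adjusted p = 0.00015). The mesenchymal factor twist1a and the homeobox factor meis1b differed by 1.37 ± 0.18 and 0.81 ± 0.12. The cardiac factors gata4, gata5, gata6, tbx5a, tbx20 and nkx2.5 were all called higher, from 0.41 for nkx2.5 to 0.94 for tbx5a. The calls of gata4, tbx20 and nkx2.5 were each lost without any 1 of at least 3 of the libraries (adjusted p up to 0.19, 0.19 and 0.23). The member that fell was prrx1a, a factor of activated epicardial and mesenchymal cells, at 45.1 and 58.3 at 2 dpi and 26.5 and 26.2 at 5 dpi (log2 -0.94 ± 0.18, adjusted p = 0.0029).

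Growth signalling genes rose in several pathways at a time. Of 82 tested ligands, receptors and modulators 41 rose and 2 fell (median 0.53), with no fall called without replicate 2 of 5 dpi and 1 without replicate 2 of 2 dpi or replicate 1 of 5 dpi. The insulin-like growth factor igf2b was at 124 and 119.9 scaled CPM at 2 dpi and 288 and 295 at 5 dpi (log2 1.25 ± 0.10, adjusted p = 7e-05), and 2 dpi did not stand apart from the untouched levels of 124 and 122. Her6, a target of Notch signalling, was at 304 and 285 at 2 dpi and 892 and 859 at 5 dpi (log2 1.57 ± 0.12, adjusted p = 5.7e-05), and the related her9 at 138 and 128 at 2 dpi and 365 and 289 at 5 dpi (log2 1.28 ± 0.14, adjusted p = 0.00019). The FGF target gene etv5a, the Wnt ligand wnt11r and amotl2a, a target of the Hippo pathway effector Yap, differed by 1.13 ± 0.10, 1.25 ± 0.13 and 1.06 ± 0.12. The members that fell were the insulin receptor substrate irs2a (-0.87 ± 0.26) and the cardiomyocyte mitogen nrg1 (-0.74 ± 0.23), and each of these calls was lost without any 1 of 3 of the libraries (adjusted p up to 0.12 and 0.19). The receptor gene erbb2 was called higher, at 11.097 and 11.7 at 2 dpi and 23.1 and 23.9 at 5 dpi (log2 0.98 ± 0.12, adjusted p = 0.00031).

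**Figure D4:**
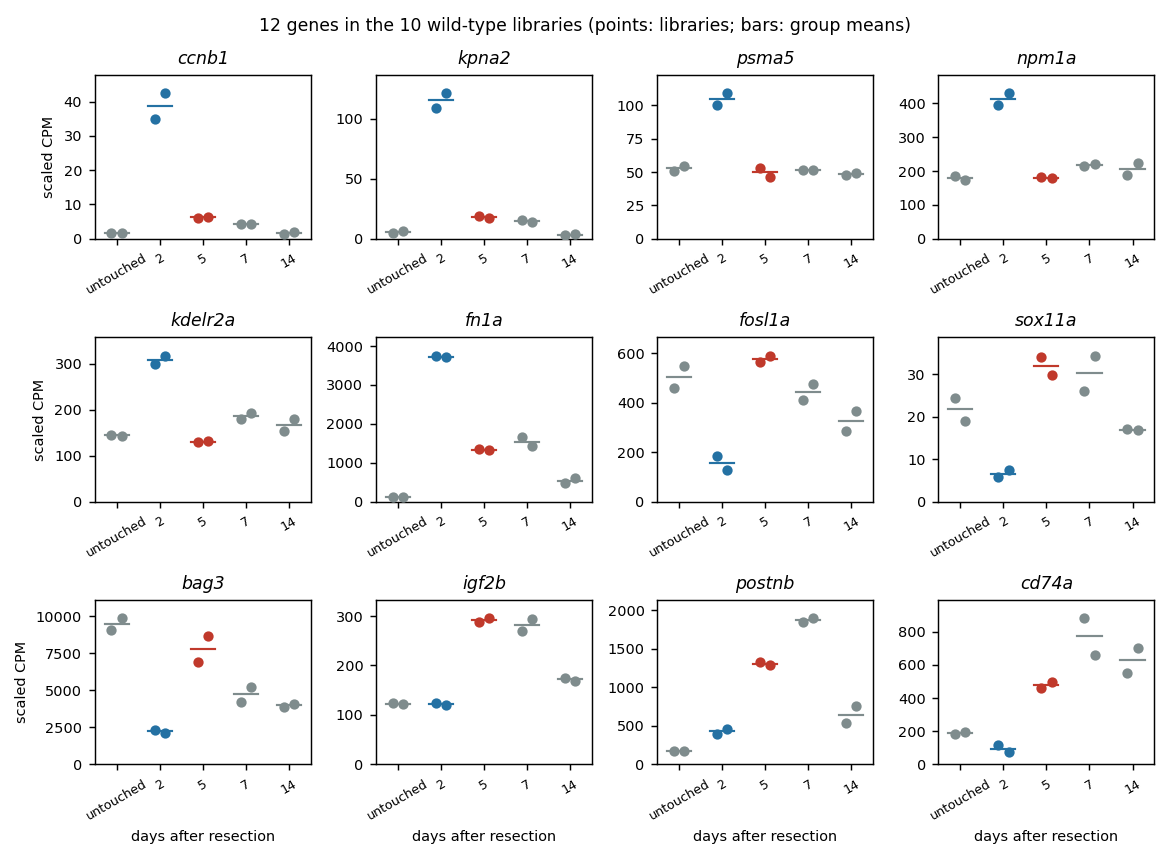
Scaled CPM of 12 genes in the 10 wild-type libraries by time after resection, with points for libraries, bars for group means, 2 dpi in blue and 5 dpi in red. Ccnb1, kpna2, psma5, npm1a, kdelr2a and fn1a are lower and the other 6 genes higher in both libraries of 5 dpi than in both of 2 dpi.

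The kit receptor genes had few reads in wild type, and of their ligand genes only kitlga was high enough to be tested. Kita had 11 and 7 reads at 2 dpi and 27 and 22 at 5 dpi, and kitb 8 and 3 reads and 3 and 2, so neither reached the level for testing. The ligand gene kitlga was at 8.64 and 6.75 scaled CPM at 2 dpi and 10.1 and 11.6 at 5 dpi and was not called (log2 0.45 ± 0.18, adjusted p = 0.07). Kitlgb had 0 reads in both libraries of 2 dpi and 3 and 1 at 5 dpi.

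Among the chaperones, genes of the Hsp70 and Hsp90 systems rose and chaperonin subunits fell. Of 44 tested members 15 rose and 11 fell (median -0.12). These were 34.1% and 25% of the members, beside 19.4% and 21.6% of all tested genes. The co-chaperone bag3, which keeps damaged sarcomere proteins in turnover, was at 2357 and 2145 scaled CPM at 2 dpi and 6889.6 and 8655 at 5 dpi (log2 1.78 ± 0.19, adjusted p = 0.00016), and the Hsp90 gene hsp90aa1.1, needed for myosin folding, at 1477 and 1489.9 at 2 dpi and 3993 and 4508 at 5 dpi (log2 1.52 ± 0.17, adjusted p = 0.00019). Dnajb1b was at 1759 and 1218 at 2 dpi and 4407 and 4519.6 at 5 dpi (log2 1.61 ± 0.21, adjusted p = 0.00038), and fkbp4, a partner of Hsp90, at 94.3 and 93.8 at 2 dpi and 187 and 224 at 5 dpi (log2 1.11 ± 0.11, adjusted p = 0.00013). All 4 were lower at 2 dpi than in untouched libraries, where bag3 held 9070.0 and 9873 scaled CPM. Hsp90aa1.1 has a near-identical neighbour, hsp90aa1.2 (1.75 ± 0.25), and the counting could have split their reads. Of 7 chaperonin subunits, which fold actin and tubulin, 5 fell and none rose, with 4 of these calls kept in every fit that left out 1 library. The collagen chaperones serpinh1a and serpinh1b moved apart, with serpinh1a at 262 and 289.7 at 2 dpi and 137 and 122 at 5 dpi (log2 -1.08 ± 0.12, adjusted p = 0.0002) and serpinh1b at 323 and 304 at 2 dpi and 808 and 724 at 5 dpi (log2 1.29 ± 0.15, adjusted p = 0.00025).

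Few genes of the respiratory chain were called in this interval, and few sarcomere genes were called lower. Of the sarcomere and Z disc genes 19.4% were called higher and 3.23% lower, beside 19.4% and 21.6% of all tested genes. Of 78 tested genes of the respiratory chain and ATP synthase 1 rose and 2 fell (median 0.02), against 41.0% of all tested genes called. Replicate 1 of 2 dpi was lower than replicate 2, with medians of -0.98 and -0.49 against untouched, while both libraries of 5 dpi were at -0.78 and -0.66. Without replicate 1 of 2 dpi, 10 members were called lower and none higher (median -0.23), and without replicate 2 of 2 dpi 8 were called higher and 1 lower (median 0.28). Without either library of 5 dpi 1 was lower and none higher. Of 31 sarcomere and Z disc genes 6 rose and 1 fell (median 0.15), with 1 rise and a median of -0.06 without replicate 1 of 2 dpi, 10 rises without replicate 2 of 2 dpi and 1 without replicate 2 of 5 dpi. There were 3 falls without replicate 1 of 2 dpi and none without replicate 2 of 2 dpi or replicate 1 of 5 dpi. The ventricular myosin gene vmhc rose, at 521 and 769 scaled CPM at 2 dpi and 1054 and 1424 at 5 dpi (log2 0.95 ± 0.20, adjusted p = 0.0041), and the myosin light chain gene myl7, at 10346 and 15305 at 2 dpi and 15719 and 19051 at 5 dpi, was not called (log2 0.46 ± 0.26, adjusted p = 0.18).
Summed cardiomyocyte markers, 26952 and 39515 scaled CPM at 2 dpi and 37123 and 45012 at 5 dpi, overlapped between the times, with replicate 1 of 2 dpi the lowest. Of the 8 markers 1, vmhc, was called higher, and the part of these levels in the results was not tested.

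Some genes of fatty acid oxidation, glycolysis and ion handling were called. Rises made up 28.1%, 23.3% and 32.4% of their tested members, beside 19.4% of all tested genes. Falls made up 0%, 6.67% and 2.94%, beside 21.6%. Of 32 fatty acid oxidation genes 9 rose and none fell (median 0.30), but only 2 without replicate 2 of 5 dpi, 3 without replicate 1 of 2 dpi and 5 without replicate 1 of 5 dpi, and 16 without replicate 2 of 2 dpi. Malonyl-CoA decarboxylase (mlycd), which relieves the block on fatty acid entry into mitochondria, was at 2.65 and 2.56 scaled CPM at 2 dpi and 9.49 and 14.9 at 5 dpi (log2 1.84 ± 0.36, adjusted p = 0.0027). Of 30 glycolysis genes 7 rose and 2 fell (median 0.10, or -0.02 with CPM as deposited and -0.05 without replicate 1 of 2 dpi), with 4 rises without replicate 2 of 5 dpi and 1 fall without replicate 1 of 5 dpi. Among the rises were 3 genes for the enzyme that sets the level of the phosphofructokinase activator, pfkfb3 at 69.0 and 43.3 at 2 dpi and 159 and 141 at 5 dpi (log2 1.43 ± 0.18, adjusted p = 0.00035), pfkfb4a (1.21 ± 0.19) and pfkfb4b (1.45 ± 0.25). Of 34 calcium handling, channel and junction genes 11 rose and 1 fell (median 0.29), with 4, 5 and 2 rises without replicate 1 of 2 dpi, replicate 1 of 5 dpi and replicate 2 of 5 dpi, and 2 falls without replicate 1 of 2 dpi. The sodium pump subunit atp1b1b rose, at 20.47 and 11.3 at 2 dpi and 40.1 and 54.5 at 5 dpi (log2 1.55 ± 0.27, adjusted p = 0.0016), and stayed below its untouched levels of 104 and 146.

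Among sterol genes, 8 of 30 rose and 4 fell, with 2 falls without replicate 2 of 2 dpi or replicate 1 of 5 dpi, beside 19.4% and 21.6% of all tested genes. The LDL receptor gene ldlra was at 11.6 and 8.79 scaled CPM at 2 dpi and 43.5 and 48.1 at 5 dpi (log2 2.07 ± 0.22, adjusted p = 0.00015), and insig1, which holds back sterol synthesis, at 17.5 and 18.3 at 2 dpi and 45.6 and 38.4 at 5 dpi (log2 1.18 ± 0.16, adjusted p = 0.00041). The gene hmgcra, for the rate-limiting enzyme of the pathway, fell, at 5.03 and 4.26 at 2 dpi and 1.52 and 1.37 at 5 dpi (log2 -1.21 ± 0.20, adjusted p = 0.0014). In the list of natriuretic peptide and stress genes 4 of 21 rose and 5 fell, with 3 falls without replicate 1 or replicate 2 of 5 dpi. As shares of this list, the 4 rises and 5 falls were near those of all tested genes, 19.4% and 21.6%. C-type natriuretic peptide (nppc) was at 52.6 and 32.8 at 2 dpi and 162 and 160.4 at 5 dpi (log2 1.93 ± 0.30, adjusted p = 0.00083), against 3.16 and 2.01 in untouched libraries, and nppa, at 1933 and 2797 at 2 dpi and 1943 and 2819.9 at 5 dpi, was not called (log2 0.01 ± 0.26, adjusted p = 0.98). Of the genes that fell, txn, prdx1, hmox1a and mt2 act in redox and metal defence, the call of mt2 being lost without replicate 1 of 2 dpi or either library of 5 dpi (adjusted p up to 0.22), with prdx1 at 23.9 and 24.5 at 2 dpi and 6.91 and 5.34 at 5 dpi (log2 -1.83 ± 0.22, adjusted p = 0.00026) and txn at 115 and 129.6 at 2 dpi and 51.8 and 52.4 at 5 dpi (log2 -1.21 ± 0.14, adjusted p = 0.00021).

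Genes of inflammation and immune cells rose in part, and several of these results rested on which library of 2 dpi was used. Of 53 tested cytokine, chemokine and mediator genes 20 rose and 4 fell (median 0.49), with 13 rises without replicate 1 of 5 dpi. Without replicate 2 of 2 dpi 15 rose and 7 fell (median 0.15), and without replicate 1 of 2 dpi 30 rose (median 0.86). The interferon regulatory factor irf1b was at 263 and 176 scaled CPM at 2 dpi and 923 and 832 at 5 dpi (log2 2.02 ± 0.19, adjusted p = 9.7e-05), and the feedback inhibitor of cytokine signalling socs3b at 159 and 134 at 2 dpi and 334 and 347 at 5 dpi (log2 1.21 ± 0.12, adjusted p = 0.00013). For both, each library of 5 dpi lay above each of 2 dpi. The chemokine cxcl12b, which guides cells that carry the receptor Cxcr4, fell, at 423 and 351 at 2 dpi and 174 and 184 at 5 dpi (log2 -1.10 ± 0.14, adjusted p = 0.00035). The cytokine il1b was not called: it was at 199 and 26.4 at 2 dpi and 185 and 142 at 5 dpi (log2 1.14 ± 0.67, adjusted p = 0.2), so that replicate 1 of 2 dpi lay above both libraries of 5 dpi.

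In the macrophage list 12 of 39 tested members rose and 4 fell (median 0.56). These were 30.8% and 10.3% of the members, beside 19.4% and 21.6% of all tested genes. Without replicate 2 of 2 dpi the median was -0.10 and 7 rose, without replicate 1 of 2 dpi it was 1.29 and 27 rose, and without replicate 1 of 5 dpi 6 rose. Summed macrophage markers were 241 and 85.8 scaled CPM at 2 dpi and 259 and 265 at 5 dpi, and 3 of the 6 tested markers were called higher. Some members rose against both libraries of 2 dpi by a wide margin. The antigen presentation gene cd74a was at 114 and 74.6 scaled CPM at 2 dpi and 459 and 496 at 5 dpi (log2 2.35 ± 0.21, adjusted p = 8.3e-05), its paralogue cd74b at 65.4 and 40.0 at 2 dpi and 173 and 179 at 5 dpi (log2 1.76 ± 0.21, adjusted p = 0.00026) and mpeg1.2, a perforin of macrophages, at 19.2 and 20.52 at 2 dpi and 60.4 and 54.8 at 5 dpi (log2 1.49 ± 0.15, adjusted p = 0.00014). The macrophage transcription factor gene mafba, which other cells also use, was at 61.0 and 40.1 at 2 dpi and 187 and 162 at 5 dpi (log2 1.79 ± 0.17, adjusted p = 0.00011). By contrast, the complement component c1qa, at 31.0 and 10.9 at 2 dpi and 27.3 and 31.0 at 5 dpi, was not called (log2 0.63 ± 0.35, adjusted p = 0.18), and no complement gene of the 9 tested was called by limma, with a median of 0.35 (-0.10 without replicate 2 of 2 dpi, where 1 fell). Without replicate 1 of 2 dpi 3 were called higher and without replicate 2 of 5 dpi 1. Of the 9 genes 1, cfd, had an unadjusted p under 0.05, and edgeR called another, c3a.1 (adjusted p = 0.047).

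In the neutrophil list 11 of 27 rose and 1 fell (median 0.57), with 4 rises without replicate 1 of 5 dpi. Without replicate 2 of 2 dpi 5 rose and 2 fell (median 0.16), and without replicate 1 of 2 dpi 15 rose (median 1.05). The fall was not called without replicate 1 of 2 dpi or either library of 5 dpi. Lysozyme (lyz) was at 2.94 and 1.18 scaled CPM at 2 dpi and 19.9 and 8.03 at 5 dpi (log2 2.23 ± 0.45, adjusted p = 0.0032), while npsn, a neutrophil protease, had 0 reads in 3 of the 4 libraries and 4 in replicate 1 of 5 dpi. Of the 4 tested neutrophil markers 2 were called higher. Not called were mpx (log2 1.04, adjusted p = 0.055) and mmp13a, at 16.5 and 3.87 at 2 dpi and 4.95 and 4.43 at 5 dpi (log2 -0.70, adjusted p = 0.25). The oxidase subunit ncf1 was at 91.8 and 18.7 at 2 dpi and 204 and 189 at 5 dpi (log2 2.21 ± 0.53, adjusted p = 0.008), with a large gap between the libraries of 2 dpi. Of 36 genes of antigen presentation, interferon response and the immunoproteasome 11 rose and 4 fell, and 7 and 6 rose without replicate 1 and replicate 2 of 5 dpi, the latter with 2 falls. The proteasome activator genes psme1 and psme2 fell, with log2 differences of -0.82 ± 0.13 and -0.61 ± 0.10. Of 8 tested lymphocyte genes 3 rose. Without replicate 1 of 2 dpi 7 rose, and without any 1 of the other 3 libraries 1 rose, with 1 fall without replicate 2 of 2 dpi. The 3 were the cytokine receptor genes il2rb and il2rga and gata3, which endothelial and other cells also express and which was at 17.2 and 15.4 at 2 dpi and 48.6 and 39.1 at 5 dpi (log2 1.37 ± 0.15, adjusted p = 0.00019). The summed markers of these cell types were low in replicate 2 of 2 dpi, as given above, and their part in the immune results was not tested.

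In the extracellular matrix, fibronectin and a hyaluronan synthase fell while periostin and laminin chains rose. Of matricellular, proteoglycan and basement membrane genes 31.9% were called higher and 8.51% lower, beside 19.4% and 21.6% of all tested genes. Fibronectin (fn1a) was at 3755 and 3706 scaled CPM at 2 dpi and 1350.5 and 1315 at 5 dpi (log2 -1.48 ± 0.15, adjusted p = 0.00013), and the hyaluronan synthase has1 at 91.7 and 82.0 at 2 dpi and 28.5 and 24.5 at 5 dpi (log2 -1.68 ± 0.12, adjusted p = 5.7e-05). Both stayed above untouched libraries, where fn1a held 109.8 and 127 scaled CPM. Periostin (postnb) was at 391 and 465 at 2 dpi and 1322 and 1284 at 5 dpi (log2 1.61 ± 0.16, adjusted p = 0.00013), and laminin alpha 1 (lama1) at 4.18 and 4.72 at 2 dpi and 14.6 and 14.9 at 5 dpi (log2 1.53 ± 0.19, adjusted p = 0.00032). Of 8 tested laminin chains 4 rose and none fell, with 3 of these calls kept in every fit that left out 1 library. In the list of matricellular, proteoglycan and basement membrane genes 15 of 47 rose and 4 fell (median 0.15), with 2 falls without replicate 1 or replicate 2 of 5 dpi.

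Of 33 genes of collagens and their processing 5 rose and 9 fell (median -0.23). These were 15.2% and 27.3% of the members, beside 19.4% and 21.6% of all tested genes. The collagens among them were col4a5 and col27a1a, which rose, and col11a1a, which fell, and the others act in folding, modification, cleavage or crosslinking of collagen. The calls of col4a5 and col27a1a were lost without replicate 2 of 5 dpi, and that of col4a5 also without either library of 2 dpi (adjusted p up to 0.21 and 0.084). With CPM as deposited 14 fell. Without replicate 2 of 2 dpi 5 fell, without replicate 2 of 5 dpi 4 fell and 1 rose, and without replicate 1 of 2 dpi 3 rose. The fibril collagen col11a1a was at 86.9 and 110.0 scaled CPM at 2 dpi and 29.7 and 24.4 at 5 dpi (log2 -1.82 ± 0.27, adjusted p = 0.00064), and the crosslinking enzyme lox at 26.9 and 39.605 at 2 dpi and 13.1 and 15.7 at 5 dpi (log2 -1.13 ± 0.23, adjusted p = 0.0031). Of 19 matrix proteases and inhibitors 7 rose (36.8%) and 3 fell (15.8%), with a median of 0.07, or -0.05 with CPM as deposited. The membrane protease mmp14b was at 107 and 88.0 at 2 dpi and 275 and 222 at 5 dpi (log2 1.34 ± 0.18, adjusted p = 0.0005), and the gelatinase mmp2, which Mmp14 is known to activate in mammals, at 383 and 403 at 2 dpi and 859 and 727 at 5 dpi (log2 1.01 ± 0.14, adjusted p = 0.00051). The inhibitor timp2b fell, at 404 and 433 at 2 dpi and 216 and 188 at 5 dpi (log2 -1.05 ± 0.18, adjusted p = 0.0014). The 2 urokinase genes moved in opposite directions, with plaua at 3.38 and 3.15 at 2 dpi and 15.4 and 14.6 at 5 dpi (log2 1.91 ± 0.30, adjusted p = 0.0009) and plaub at 8.89 and 3.61 at 2 dpi and 0.134 and 0.0456 at 5 dpi (log2 -2.63 ± 0.48, adjusted p = 0.0019).

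Epicardial and fibroblast genes moved in both directions, with 28.3% called higher and 19.6% lower, beside 19.4% and 21.6% of all tested genes. Of 46 tested members 13 rose and 9 fell (median 0.21), while the summed markers, 3091 and 4290.2 scaled CPM at 2 dpi and 3969 and 3645 at 5 dpi, overlapped between the times. The epicardial factor wt1a was at 30.6 and 27.1 scaled CPM at 2 dpi and 51.4 and 51.1 at 5 dpi (log2 0.81 ± 0.13, adjusted p = 0.00099), and clusterin (clu) at 169 and 204 at 2 dpi and 561 and 435 at 5 dpi (log2 1.41 ± 0.18, adjusted p = 0.00035). Thy1, a surface protein of mesenchymal cells, fell, at 44.0 and 56.7 at 2 dpi and 13.9 and 10.4 at 5 dpi (log2 -1.97 ± 0.21, adjusted p = 0.00019), as did tnfaip6, which remodels hyaluronan, at 203 and 283 at 2 dpi and 78.5 and 83.5 at 5 dpi (log2 -1.55 ± 0.16, adjusted p = 0.00014). The retinoic acid enzyme aldh1a2, a gene of activated epicardium and endocardium, fell as well, at 622 and 709 at 2 dpi and 398 and 336 at 5 dpi (log2 -0.86 ± 0.17, adjusted p = 0.003).

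In the endothelial list, Notch receptors and a ligand, flow-responsive factors and claudins rose, while lymphatic-type hyaluronan receptors and the VEGF receptors flt1 and flt4 fell. Of 56 tested members 26 rose and 5 fell (median 0.40), with 17 rises and 2 falls without replicate 1 of 5 dpi, and 3 falls without replicate 1 of 2 dpi or replicate 2 of 5 dpi. The calls of flt1 and flt4 were lost without replicate 1 of 5 dpi (adjusted p up to 0.052 and 0.055). Nrp1a, a co-receptor for VEGF, was at 71.9 and 72.2 scaled CPM at 2 dpi and 189 and 158 at 5 dpi (log2 1.25 ± 0.11, adjusted p = 9.1e-05). The receptor notch1b was at 202 and 245 at 2 dpi and 416 and 441 at 5 dpi (log2 0.94 ± 0.14, adjusted p = 0.00077), the flow-responsive factor klf2a at 111 and 119 at 2 dpi and 216 and 208 at 5 dpi (log2 0.87 ± 0.11, adjusted p = 0.00029) and the Notch ligand dll4 at 97.6 and 100.1 at 2 dpi and 190.5 and 166 at 5 dpi (log2 0.84 ± 0.13, adjusted p = 0.0007). Kdrl, a VEGF receptor used as a pan-endothelial marker, was at 306 and 310.5 at 2 dpi and 328 and 322 at 5 dpi and was not called (log2 0.08 ± 0.13, adjusted p = 0.65). The hyaluronan receptor stab2 fell, at 24.2 and 25.8 at 2 dpi and 13.6 and 10.2 at 5 dpi (log2 -1.03 ± 0.17, adjusted p = 0.0013). Summed endothelial markers were 704 and 759 scaled CPM at 2 dpi and 804 and 789 at 5 dpi, and their part in the result was not tested.

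Smooth muscle genes were called higher in 23.5% and lower in 5.88%, beside 19.4% and 21.6% of all tested genes. For erythrocyte and thrombocyte genes these shares were 12% and 4%, and for lysosomal and proton pump genes 3.92% and 13.7%. Apolipoprotein and lipid handling genes, with 25% and 18.75%, were near the shares of all tested genes. Of 17 smooth muscle and mural genes 4 rose and 1 fell, with 7 rises without replicate 2 of 2 dpi, 1 without replicate 1 of 5 dpi and 2 without replicate 2 of 5 dpi, and with no fall in any of the 4 fits that left out 1 library. Of 25 erythrocyte and thrombocyte genes 3 rose and 1 fell (median 0.24), but without replicate 1 of 2 dpi 16 rose and without replicate 2 of 2 dpi 11 fell and 1 rose (median -0.17). Without replicate 1 of 5 dpi 1 rose. Of 51 lysosomal and proton pump genes 2 rose and 7 fell (median -0.05), with 9 rises and 3 falls without replicate 1 of 2 dpi (median 0.02), and 2 and 3 falls without replicate 1 and replicate 2 of 5 dpi. There was 1 rise without replicate 2 of 2 dpi or replicate 1 of 5 dpi. The lysosomal regulator tfeb, one of the 2 members that rose, was at 13.8 and 10.3 scaled CPM at 2 dpi and 23.9 and 30.9 at 5 dpi (log2 1.13 ± 0.19, adjusted p = 0.0015). The other, tfec (1.32 ± 0.36), lost its call without replicate 2 of 2 dpi or replicate 1 of 5 dpi (adjusted p up to 0.093). Of 16 apolipoprotein and lipid handling genes 4 rose and 3 fell, with 1 rise without replicate 2 of 5 dpi and 2 without replicate 2 of 2 dpi or replicate 1 of 5 dpi. Endothelial lipase (lipg) fell, at 101 and 95.5 at 2 dpi and 36.1 and 22.3 at 5 dpi (log2 -1.76 ± 0.30, adjusted p = 0.0013), against 1.66 and 3.61 in untouched libraries.

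The largest rise of any tested gene was that of f13a1a.1, which encodes a catalytic A chain of coagulation factor XIII, the enzyme that crosslinks fibrin. It had 175 and 72 reads at 2 dpi and 12987 and 36447 at 5 dpi, or 7.04 and 4.72 scaled CPM at 2 dpi and 579 and 1663 at 5 dpi (log2 7.18 ± 0.53, adjusted p = 5.7e-05). Untouched libraries held 223 and 176 scaled CPM, those of 7 dpi 1165 and 362 and those of 14 dpi 1128 and 1182, so that of the 10 libraries only those of 2 dpi lay below 10 scaled CPM. Its relative f13a1b, a thrombocyte marker here, was at 192 and 59.9 at 2 dpi and 99.5 and 96.4 at 5 dpi and was not called (log2 -0.13 ± 0.46, adjusted p = 0.84). In the coagulation list 5 of 18 genes rose and 2 fell, with 3 rises without replicate 1 of 5 dpi and 1 fall without either library of 5 dpi. Tissue factor (f3b), which starts clotting, was at 205 and 141 at 2 dpi and 446 and 475 at 5 dpi (log2 1.43 ± 0.16, adjusted p = 0.00019).

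Other large rises belonged to no single list. The alcohol dehydrogenase adh8a was at 12.1 and 16.7 scaled CPM at 2 dpi and 134 and 147 at 5 dpi (log2 3.21 ± 0.20, adjusted p = 5.5e-05), above the untouched levels of 45.0 and 41.9 as well. Klhl24b, a ubiquitin ligase adaptor, was at 6.43 and 2.95 at 2 dpi and 34.7 and 35.4 at 5 dpi (log2 2.73 ± 0.27, adjusted p = 0.00013), and pdcd4b, an inhibitor of translation initiation in mammals, at 104 and 54.0 at 2 dpi and 377 and 347 at 5 dpi (log2 2.26 ± 0.25, adjusted p = 0.00019). The cholesterol hydroxylase ch25h, the p53 target tp53inp1 and the transcription factor prdm8b differed by 2.18 ± 0.20, 2.16 ± 0.18 and 2.15 ± 0.20. The leukocyte factor cebp1 was at 11.5 and 1.57 scaled CPM at 2 dpi and 21.1 and 27.9 at 5 dpi (log2 2.16 ± 0.54), with a large gap between the libraries of 2 dpi. Its difference ranged from 1.02 to 3.30 with 1 library left out, and its call was lost without replicate 2 of 5 dpi. The troponin I gene tnni1c was at 2.98 and 3.67 at 2 dpi and 14.0 and 22.9 at 5 dpi (log2 2.13 ± 0.26, adjusted p = 0.00027), against 16.99 and 23.8 in untouched libraries and 3.01 and 4.83 at 7 dpi, and mpped2, a metallophosphodiesterase, differed by 2.14 ± 0.24.

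The largest falls, beside cell cycle genes, included that of cplx2l, a complexin that regulates vesicle fusion, at 12.1 and 25.7 scaled CPM at 2 dpi and 2.18 and 2.65 at 5 dpi (log2 -2.46 ± 0.33, adjusted p = 0.00044). Replicate 2 of 2 dpi was the higher of the pair, and 5 dpi lay below both libraries. The prolyl isomerase fkbp11 of the secretory pathway was at 12.7 and 20.9 at 2 dpi and 3.12 and 2.42 at 5 dpi (log2 -2.21 ± 0.22, adjusted p = 0.00013), and gig2j, of a fish family induced by virus and interferon, at 18.4 and 13.4 at 2 dpi and 3.12 and 2.83 at 5 dpi (log2 -2.07 ± 0.25, adjusted p = 0.00029). The kinase regulator cks1b differed by -2.03 ± 0.23.

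The same step was then compared with that of kit mutants, in a fit of all libraries in which 3 near-identical mutant pairs, untouched, 2 and 7 dpi, were each averaged and counted as 1 sample. Within these 3 pairs, chi-square per gene averaged 1.95 to 3.73, while the other pairs of the series lay at 13.9 to 46.6. The mutant pair of 2 dpi is also the only pair labelled lane 7, all others being lane 8, so the mutant step and the lane cannot be told apart. Reads of the mutated genes could not check the labels, with kita at 27 and 27 reads at 2 dpi and 7 and 7 at 5 dpi in mutants and kitb at 3 to 7. The alleles need not lower transcript levels.

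In mutants 2543 genes were called higher at 5 dpi than at 2 dpi (24.4%) and 2633 lower (25.2%). With CPM as deposited the median of all genes in mutants shifted by -0.33, the counts were 1485 and 3882, and the share of calls that were rises went from 49.1% to 27.7%. The step differed between genotypes in 4600 genes (44.1%), being more positive in mutants in 2400 and more negative in 2200. Of 2246 genes called in both genotypes, 1285 moved the same way and 961 in opposite ways. Across the 10433 genes, which are not independent replicates, the steps had a Pearson correlation of 0.11 and a Spearman correlation of 0.09. Here the wild-type step came from the wild-type fit and the mutant step from the fit of all libraries, each with its own scaling. The 2 steps contrast different libraries, but the fit of all libraries also held the wild-type ones.

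The mitotic fall was found in both genotypes. In mutants 50 of 56 mitosis genes fell and none rose (median -1.68), and the step differed from wild type in 6 members upward and 8 downward. Ccnb1 was at 13.1 and 12.6 scaled CPM at 2 dpi and 4.87 and 3.41 at 5 dpi in mutants, and its fall was smaller than in wild type (mutant minus wild-type step, log2 1.02 ± 0.28, adjusted p = 0.0098). Mki67 was at 55.4 and 58.2 scaled CPM at 2 dpi and 4.24 and 6.24 at 5 dpi, and its fall was larger (mutant minus wild-type step, log2 -1.47 ± 0.27, adjusted p = 0.00093), as was that of top2a (mutant minus wild-type step, log2 -1.15 ± 0.24, adjusted p = 0.0025). On the same scale, wild-type libraries held 55.4 and 53.2 at 2 dpi and 17.3 and 13.5 at 5 dpi for mki67, so that mutants were lower at 5 dpi. Ribosome biogenesis fell in both, with 31 of 58 members lower and 3 higher in mutants (median -0.50). The matrix genes fn1a and has1 fell and postnb rose in mutants too, with log2 differences of -1.86, -1.99 and 1.48 and with no call of a difference between genotypes for any of the 3 (adjusted p = 0.29, 0.51 and 0.76).

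Other groups moved differently in mutants. Their counts stand beside 24.4% of all tested genes called higher in mutants, 25.2% called lower and 44.1% with a step that differed between genotypes. Ribosomal proteins rose, with 66 of 74 called higher (median 1.1002), and the step differed from wild type in 72. The respiratory chain rose in 75 of 78 members (median 1.75, different in 74), where wild type had 1 rise and 2 falls. Proteasome genes had 11 rises, near the share of all tested genes, and 4 falls (median 0.16, different in 37 of 41). This median was smaller in size than the shift of -0.33 over all genes in mutants with CPM as deposited. For psma5, mutant libraries held 70.303 and 68.2 scaled CPM at 2 dpi and 71.5 and 63.2 at 5 dpi and wild-type libraries 100.3 and 108 at 2 dpi and 52.3 and 46.1 at 5 dpi (mutant minus wild-type step, log2 1.03 ± 0.17, adjusted p = 0.00052).
Immediate early genes fell in 12 and rose in 4 of 34 members (median -0.32), and the step was more negative than in wild type in 22. Over all 10433 tested genes it was more negative in 2200. Fosb was at 188 and 186 scaled CPM at 2 dpi and 41.7 and 50.7 at 5 dpi in mutants against 48.6 and 40.2 at 2 dpi and 162 and 155 at 5 dpi in wild type on the same scale (mutant minus wild-type step, log2 -3.82 ± 0.26, adjusted p = 4.7e-06), so that the order of the times was inverted. Developmental transcription factors were more negative in 20 of 37 members, inflammatory genes in 26 of 53 and macrophage genes in 21 of 39, with mafba at 316 and 324 scaled CPM at 2 dpi and 73.6 and 83.3 at 5 dpi in mutants and 61.1 and 39.8 at 2 dpi and 184 and 160.2 at 5 dpi in wild type (mutant minus wild-type step, log2 -3.80 ± 0.26, adjusted p = 4.7e-06).

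**Figure D5:**
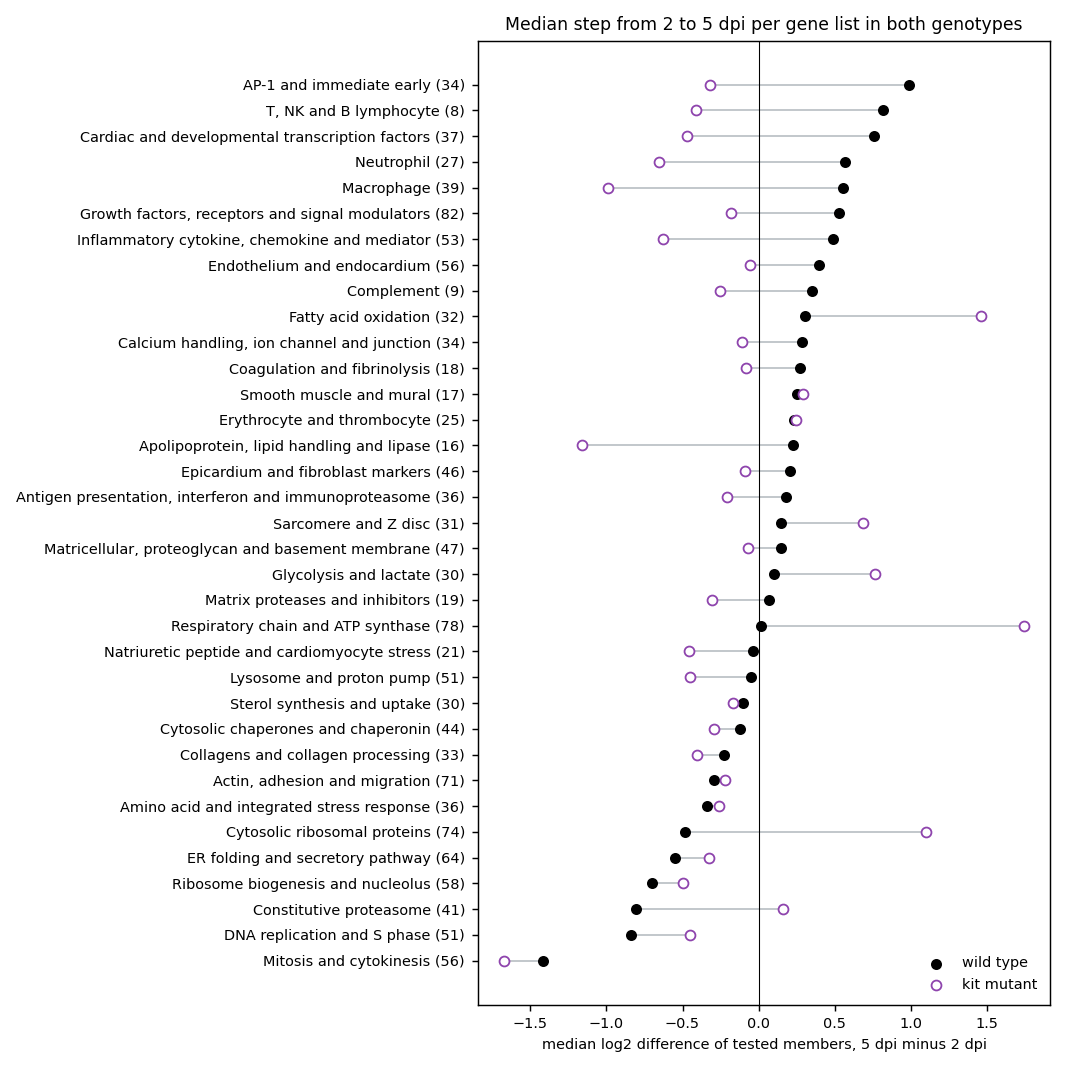
Median log2 difference of 5 dpi minus 2 dpi over the tested members of each list, in wild type (filled) and kit mutants (open), with the number of members in brackets. Mitosis lies at -1.42 and -1.68, ribosomal proteins at -0.48 and 1.1002, and the AP-1 list at 0.99 and -0.32.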

How the data were processed

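RNA-seq was deposited by the authors as one table of CPM per gene, 20 columns, with FastQC, featureCounts and the build danRer10 named in the submitters' processing notes. No source used here gives the aligner, the annotation or the strand setting. In the deposited CPM, 100% of values were whole reads within 0.1 read. These recovered counts were used only for depth, the reads given per gene, chi-square, the factors of TMM scaling and edgeR. The table has 14781 named genes, and 3 lines without a name were left out.

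CPM were divided by median-ratio factors over 11323 genes (0.877 to 1.18 in wild type) and tested as log2(scaled CPM + 1) with limma 3.58.1 (trend, R 4.3.3) in a fit of the 10 wild-type libraries with 5 residual degrees of freedom, and p-values of the 10433 genes were adjusted by Benjamini-Hochberg, with calls made under 0.05. The mutant step and the genotype difference came from all 20 libraries, 17 values after averaging near-identical pairs, with their own scaling. edgeR 4.0.16 was an alternative. The scripts were tested on simulated data.

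Genes named are the kit genes, the 14 largest rises and 14 largest falls (5 scaled CPM or more, groups apart, unadjusted p under 0.05 without each library), up to 6 called genes per list, list members that ended a count, and some marker genes and families chosen after their values were seen. The members and lists were chosen with earlier results of these data known. Alternatives were scaling, filter, pseudocount, samples in the fit, block, edgeR and leaving out each library. Day 14 was taken from the sample titles, where another label differs. Promoters and other sequences were not used here. One gene that the rule names is not reported here.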

Additional observations from a re-analysis of the deposited data

Results flagged for a closer look

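The step from 2 to 5 dpi differed between kit mutants and wild type in 4600 genes by limma's test of the difference. The 3 largest differences in each direction are given here, as the mutant step minus the wild-type step with its standard error, and the levels are scaled CPM. All rest on the near-identical mutant pair of 2 dpi, counted as 1 sample, which alone carries lane 7 in the labels. Lane and genotype cannot be told apart in them.

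Smyd1b, a chaperone-like factor of myosin assembly, was at 101 and 129 at 2 dpi and 34.7 and 42.1 at 5 dpi in wild type and at 26.5 and 25.7 scaled CPM at 2 dpi and 85.0 and 74.99 at 5 dpi in mutants (difference log2 3.13 ± 0.47, adjusted p = 0.0003). Cplx2l was at 12.1 and 25.5 at 2 dpi and 2.16 and 2.62 at 5 dpi in wild type and at 9.98 and 9.71 scaled CPM at 2 dpi and 15.2 and 16.5 at 5 dpi in mutants (log2 3.1014 ± 0.48, adjusted p = 0.00032). Both fell in wild type and were higher at 5 dpi in mutants. The mutant step of smyd1b was called (log2 1.57 ± 0.37), and that of cplx2l was not (log2 0.64 ± 0.37). The cytochrome P450 gene cyp2ad2 was at 29.0 and 54.4 at 2 dpi and 36.1 and 27.98 at 5 dpi in wild type, where the times overlapped, and at 28.9 and 25.2 scaled CPM at 2 dpi and 171 and 159 at 5 dpi in mutants (log2 2.88 ± 0.47, adjusted p = 0.00046).

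The other 3 were high in mutants at 2 dpi. The macrophage gene irg1 was at 24.3 and 2.08 at 2 dpi and 41.2 and 31.3 at 5 dpi in wild type and at 243 and 232 scaled CPM at 2 dpi and 9.74 and 44.6 at 5 dpi in mutants (log2 -5.49 ± 1.27, adjusted p = 0.004). The cytokine gene il1b was at 199 and 26.1 at 2 dpi and 183 and 141 at 5 dpi in wild type and at 1534 and 1585 scaled CPM at 2 dpi and 47.4 and 141 at 5 dpi in mutants (log2 -5.36 ± 1.07, adjusted p = 0.0017). For both, replicate 2 of wild type at 2 dpi, which had low leukocyte markers, was the lowest of the 4 wild-type libraries. Sox9b, a factor of skeletal and progenitor cells, was at 1.85 and 1.82 at 2 dpi and 5.94 and 5.92 at 5 dpi in wild type and at 26.5 and 24.6 scaled CPM at 2 dpi and 0.949 and 0.853 at 5 dpi in mutants (log2 -5.09 ± 0.31, adjusted p = 3.8e-06), with each pair close together.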

How the results depend on the processing

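The 2025 rises and 2255 falls of wild type stayed within 1.5 times of these counts under every alternative run that keeps all 4 libraries, among them TMM scaling (2119 and 2160), quantile normalization (2041 and 2400), edgeR on recovered reads (2075 and 2169) and the 4 libraries fitted alone (1610 and 1787). With 1 library left out, rises ranged from 1229 to 1977 and falls from 1334 to 2166. In mutants, rises ranged from 2024 to 2599 and falls from 2082 to 2768 with 1 library left out, and CPM as deposited gave 1485 rises. The genotype difference ranged from 3698 to 4744 genes with 1 library left out, and was 5855 with both libraries of each near-identical pair kept. Over the 207 genes taken by the naming rule, 103 of the values under an alternative lost their call and 8 gained one. None changed direction where either fit called the gene. Without a call, il1b went from 1.14 to -0.29 and cyp2ad2 from -0.31 to 0.14 with 1 library left out. Most of the 207 were chosen for a call, and the largest rises and falls also for holding without each library. Their stability was therefore partly fixed by the choice, and other genes named elsewhere are not in these counts. With the replicate number as a block, 1999 genes rose and 2203 fell in wild type, and the block with all 20 libraries gave 3195 rises and 3432 falls in mutants and 5789 differences. Same-numbered libraries of 2 and 5 dpi had deviations that correlated at 0.124, and other wild-type pairs of groups at -0.184 to 0.158. With 2 libraries per group, these values cannot show whether same-numbered libraries shared more than a number. With 3 reads at no more than 0.205 CPM, genes near 1 CPM rest on few reads, and each group has only 2 libraries.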

Other observations

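Further gene families also had called members from 2 to 5 dpi. They were picked out after the values of these data were seen, so their counts are descriptions. Of 33 tested genes of the circadian clock and its outputs 20 rose and none fell (median 0.57), against 19.4% and 21.6% of all tested genes. With each library left out in turn, 13 of the 20 calls were kept throughout. The repressor gene cry2a was at 35.02 and 36.1 scaled CPM at 2 dpi and 112 and 115 at 5 dpi (log2 1.65 ± 0.20, adjusted p = 0.00027), and bhlhe40, another repressor of the clock, at 294 and 297 at 2 dpi and 667 and 729 at 5 dpi (log2 1.24 ± 0.12, adjusted p = 0.00013). Untouched libraries held 102 and 66.5 scaled CPM for cry2a and 785 and 937 for bhlhe40. Per1a and per1b were not called (0.12 ± 0.18 and 0.07 ± 0.11). The labels used here give no hour of collection. Of 20 core proteins of the spliceosome, which removes introns, 18 fell and none rose (median -0.95).

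In the myc family, transcription factors of growth, 4 of 5 tested members rose. Mycn was at 16.1 and 13.9 scaled CPM at 2 dpi and 61.3 and 55.4 at 5 dpi (log2 1.89 ± 0.14, adjusted p = 5.7e-05), while mycla differed by 0.54 ± 0.21 and was not called. Of 11 tested genes of polyamine metabolism 2 rose, 2 fell and 7 were not called. These counts were near the shares of all tested genes, 19.4% called higher and 21.6% lower. Odc1, the entry enzyme of polyamine synthesis, was at 162 and 193 at 2 dpi and 49.3 and 40.5 at 5 dpi (log2 -1.96 ± 0.18, adjusted p = 8.5e-05), and sat1b, which acetylates polyamines for removal, at 7.60 and 5.44 at 2 dpi and 32.8 and 24.5 at 5 dpi (log2 1.98 ± 0.19, adjusted p = 0.00013). Spermidine synthase srm and the second acetylase sat1a.1 differed by -0.83 ± 0.18 and 1.82 ± 0.29. Among ubiquitin ligase genes of muscle, fbxo32 was at 27.5 and 22.4 at 2 dpi and 75.9 and 99.3 at 5 dpi (log2 1.77 ± 0.19, adjusted p = 0.00017), trim63a differed by 1.73 ± 0.22 and trim63b by 1.26 ± 0.18. Klhl40a, which protects thin filament proteins, fell, at 43.7 and 64.1 at 2 dpi and 13.3 and 20.0 at 5 dpi (log2 -1.64 ± 0.27, adjusted p = 0.0011), and klhl41b differed by -2.39 ± 0.86, a call lost without any 1 of the 4 libraries (adjusted p up to 0.17).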
